A study of Homo sapiens with 34 samples.

Results

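Complement is a set of plasma and membrane proteins, and 9 of its genes were followed through the cytokine-free blood differentiation of H1 cells: C3, C1R, C1S, CFB, CFD, CFP, SERPING1, C3AR1 and C5AR1. They were taken by symbol from the 20255 genes of the table, each symbol occurred once, and the C1q genes were kept apart. All 9 passed the filter on low values. H1 is an established human embryonic stem cell line. RNA was sequenced from 34 samples, which were 1 undifferentiated sample without added factors, EBs at day 0, labelled BMP4+hVEGF, unsorted cells at days 2 and 4, labelled hVEGF, and sorted cells at days 6, 9, 12 and 16, also in hVEGF. By the study's methods BMP4 was in the attachment medium that began at day 0, so the day 2 cells had been exposed to it too. No haematopoietic cytokine was added to any group. Sorting was by CD43, a sialoglycoprotein of blood cells encoded by SPN, at days 6, 9 and 12. The day 16 sort also used CD45, and its CD43-CD45- and CD43+/CD45+ cells are called CD43- and CD43+ here. Any comparison of sorted cells of day 16 with an earlier day thus changes the sort with the day, and these cannot be told apart. Each of the 11 populations from day 0 onwards had 3 biological replicates, all from the same line. Every sample was a mixture of cells, so fewer cells of a type and less RNA per cell cannot be told apart.

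Complement marks surfaces for removal and calls in phagocytes. In the classical pathway C1q binds a target and activates the proteases C1r and C1s, which cleave C4 and C2. In the alternative pathway factor D cleaves factor B bound to C3b, and properdin holds the resulting convertase together. Both routes cleave C3. The peptides C3a and C5a released along the cascade are the anaphylatoxins, which signal through G-protein-coupled receptors on myeloid cells. Plasma complement comes largely from hepatocytes, while fibroblasts and macrophages produce components locally, and factor D is known also as adipsin of fat cells.

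The values were GC-normalized by the authors and have no depth of their own, since every sample held the same set of values in another order and summed to 17856940. The median gene read 197 and the highest 90700, and the highest value of any of the 9 genes was 5777. Values of different genes were not normalized to length and are not compared here. SPN read 18 to 328 in the 12 CD43- samples and 2338 to 9460 in the 12 CD43+ samples, so the sort followed its labels. A gene was called when limma gave a Benjamini-Hochberg adjusted p below 0.05 over the 19788 genes tested and a fold change above 4, which is 2 on the log2(value + 1) scale. All log2 fold changes are on that scale, with their SE, and every mean ± SD is over n = 3.

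Between CD43+ and CD43- cells the 9 genes fell into 3 patterns. C1R and, from day 12, C1S were lower in CD43+ cells. CFD, C3AR1 and C5AR1 on all 4 days, and CFP from day 9, were higher in CD43+ cells. SERPING1 and CFB were called on no day, and C3 was called on day 9 only. On day 6, 3 of the 9 genes were called higher and 1 lower, where 4.69% of all genes tested were called higher and 7.85% lower. Day 9 had 5 higher and 1 lower, beside 8.65% and 12.8% of all genes. Day 12 had 4 higher and 2 lower, beside 11.8% and 14.4%. The same counts of 4 and 2 held for day 16, beside 12.2% and 13.6%. The populations did not overlap for 5 of the 9 genes on day 6, 8 at day 9, 6 at day 12 and 7 at day 16, against 56.8%, 70.9%, 61.6% and 73% of all genes. The median log2 fold change of the 9 genes was -0.02, 2.19, 1.51 and 0.06 for days 6, 9, 12 and 16, and that of all genes tested was 0.14, 0.24, 0.22 and 0.14.

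**Figure D1:**
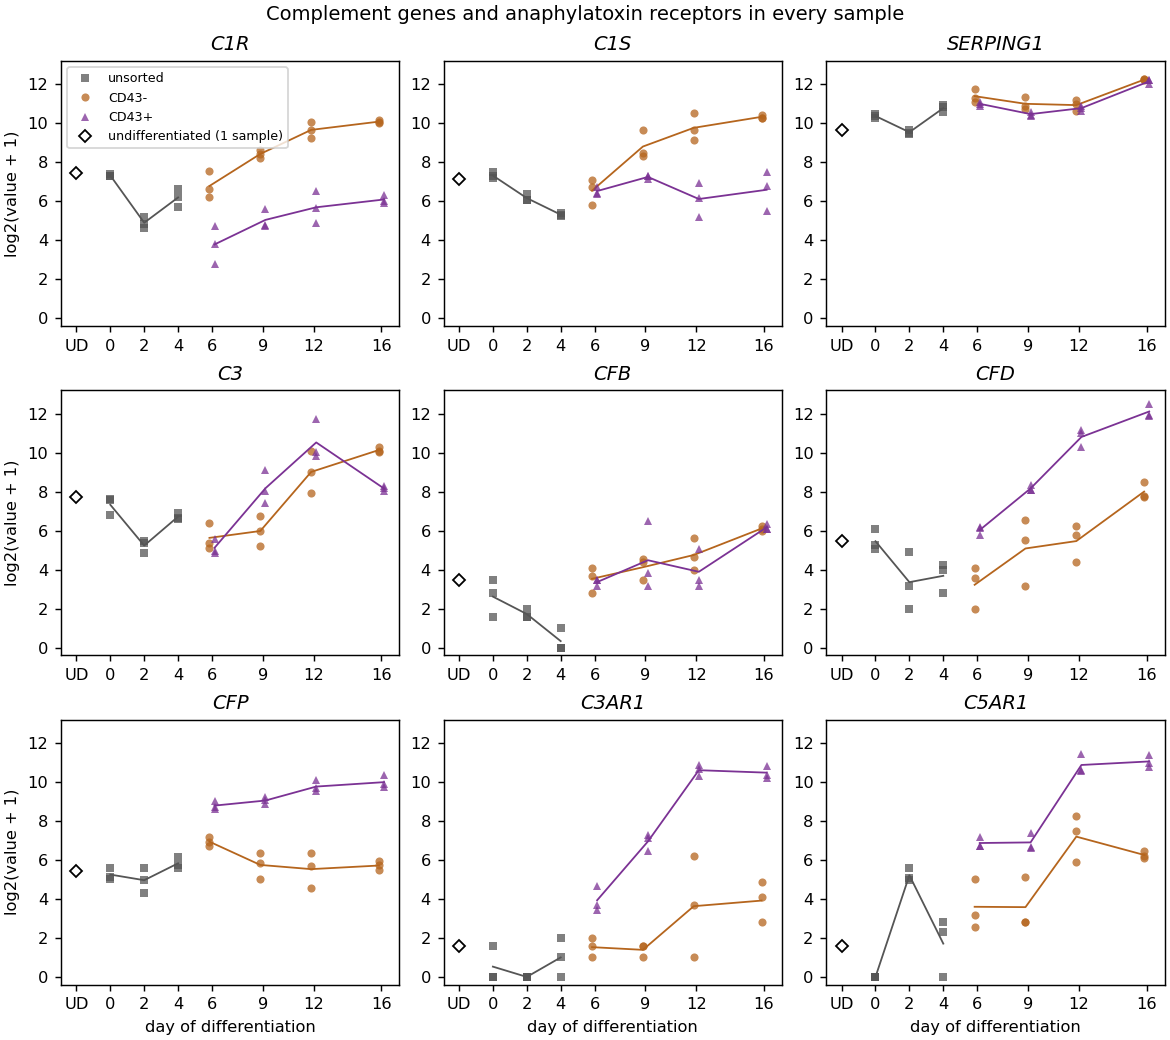
Each panel plots log2(value + 1) of 1 gene against the day of differentiation, with 1 point per sample, grey squares for unsorted cells, orange circles for CD43- cells, purple triangles for CD43+ cells, a diamond for the undifferentiated sample (UD) and lines through the means. C1R and C1S are higher on later days along the orange line, CFD, CFP, C3AR1 and C5AR1 stand higher on the purple line, and the lines of C3 cross between days 12 and 16.

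C1R encodes the protease that starts the classical pathway. The gene lies at chr12:7080209-7092607 on the minus strand (GRCh38) and overlaps C1RL on the same strand. C1R read 73, 97 and 186 in the CD43- cells of day 6, 298, 400 and 344 in those of day 9, 618, 1068 and 814 in those of day 12 and 1170, 1027 and 1082 in those of day 16. The CD43+ cells read 13, 6 and 26, then 26, 27 and 47, then 49, 29 and 92, and finally 80, 64 and 60. Every CD43- sample was above every CD43+ sample of its day. Its CD43+ minus CD43- difference was -3.00 ± 0.40 at day 6 (adjusted p = 5.42e-07), -3.38 ± 0.40 at day 9 (3.07e-08), -3.97 ± 0.40 at day 12 (1.21e-09) and -4.00 ± 0.40 at day 16 (1.16e-09). Between successive days the CD43- values moved by 1.64 ± 0.40 from day 6 to day 9 (adjusted p = 0.0116) and by 1.23 ± 0.40 from day 9 to day 12 (0.0158), both under 4-fold. Without replicate 3 of day 6, whose 186 was the highest of its group, the first of these became 2.02 (adjusted p = 0.00301) and was called. In the order of group means the day 16 and day 12 CD43- cells came first and overlapped, and the day 9 CD43- cells came next and overlapped neither the day 12 cells nor the day 0 EBs below them.

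C1R was already present before differentiation. The undifferentiated sample read 172 and the day 0 EBs 156, 156 and 168. C1R then fell to 36, 24 and 28 on day 2 (-2.43 ± 0.40, adjusted p = 2.1e-05). Day 4 read 98, 52 and 75, a difference of 1.30 ± 0.40 that passed the p threshold (0.0111) but not the 4-fold limit. From day 4 to the CD43+ cells of day 6 it fell by a further 2.41 ± 0.40 (adjusted p = 1.26e-05), which became 1.92 without replicate 2 of the day 6 CD43+ cells and was then not called. The day 4 to day 6 change in CD43- cells was 0.59 ± 0.40 (adjusted p = 0.234).

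C1S encodes the protease that C1r activates, and it is the neighbour of C1R on chromosome 12. It lies at chr12:6988259-7071032 on the plus strand, 9176 bases from C1R, and overlaps EMG1 on its own strand and LPCAT3 on the other. Whether strand was used in the counting is not stated in the sources used here. From day 6 through days 9 and 12 to day 16, C1S in CD43- cells read 56, 106 and 134, then 315, 798 and 360, then 568, 1480 and 796, and last 1252, 1382 and 1252. The CD43+ samples of the same days read 83, 86 and 107, then 140, 158 and 158, then 36, 124 and 72, and last 110, 180 and 44. The populations overlapped on day 6 and were apart from day 9 onwards.

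Between CD43+ and CD43- cells the C1S difference was -0.02 ± 0.42 at day 6 (adjusted p = 0.986), -1.56 ± 0.42 at day 9 (0.00207, under 4-fold), -3.65 ± 0.42 at day 12 (1.83e-08) and -3.74 ± 0.42 at day 16 (1.25e-08). C1R was called from day 6 and C1S from day 12, and whether the proteases differ in this was not tested. The C1S difference itself changed by -3.72 ± 0.60 between days 6 and 16 (adjusted p = 1.04e-05), while the change for C1R missed the threshold (0.147). Within CD43- cells C1S rose by 2.26 ± 0.42 from day 6 to day 9 (adjusted p = 0.00107), and no other of the 9 genes was called there, beside 1.1% of all genes called higher. That call was lost without replicate 1 of day 6 (1.90, adjusted p = 0.0129) and without replicate 2 of day 9 (1.85, adjusted p = 0.0141), the lowest and the highest sample of their groups. The unsorted samples read 180, 144 and 156 at day 0, 66, 66 and 82 at day 2 and 37, 38 and 42 at day 4, with no call between successive days.

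Over the 33 replicated samples C1R and C1S had a Pearson's r of 0.81 on the log2 scale, and 216 was the rank of C1S among the genes most like C1R. The 3 genes nearest to C1R were GOLGA8A (r = 0.94), P4HA2 (0.93), a prolyl hydroxylase subunit of collagen synthesis, and SLC15A1 (0.92). Those nearest to C1S were SERPINE3 (0.92), SLC34A2 (0.91) and CYP2W1 (0.90). These correlations are a description over samples that share the same populations.

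CD43- cells carried the transcripts of mesenchymal, of endothelial and of endodermal cells. The summed value of 10 mesenchymal marker genes was 202867 to 247893 on day 6 and 321322 to 326408 on day 16 in CD43- cells, with all 10 genes at a mean of at least 10. In CD43+ cells it was 60150 to 156238 on day 6 and 7456 to 15910 on day 16. The sum of 8 endothelial genes in CD43- cells was 36322 to 113735 on day 6 and 55617 to 68490 on day 16. The CD43+ cells had 34027 to 44878 and 7694 to 10234 on those days. The sum of 9 hepatic and yolk-sac genes in CD43- cells was 2847 to 8703 on day 6 and 688 to 4111 on day 9. It was 5153 to 15226 on day 12 and 14659 to 24887 on day 16. AFP, the fetal serum protein among them, read 17368, 10084 and 15868 on day 16. On day 12 replicate 2 was the highest CD43- sample for C1R, C1S, C3, CFB and SERPING1, and its hepatic and yolk-sac sum was 15226 against 6810 and 5153. It also had the highest sums of endothelial genes (48889 against 33437 and 31799) and of interferon response genes (7337 against 4654 and 6230). On day 9 C1S was highest in replicate 2, at 798, while the hepatic and yolk-sac sum was 1662 there and 4111 in replicate 1. The part of these cells in the complement values was not tested.

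SERPING1 encodes the C1 inhibitor, which removes active C1r and C1s. The gene lies at chr11:57597387-57614853 on the plus strand and overlaps no annotated gene. SERPING1 was not called between CD43+ and CD43- cells on any day. Its CD43- values were 3517, 2564 and 2186 at day 6, 2636, 1899 and 1740 at day 9, 1582, 2328 and 2058 at day 12 and 4718, 4962 and 4900 at day 16. Its CD43+ values were 2058, 1936 and 2186, then 1404, 1524 and 1356, then 1599, 1917 and 1791, and last 4846, 4718 and 4194. The difference was -0.39 ± 0.15 at day 6 (adjusted p = 0.0307), -0.53 ± 0.15 at day 9 (0.00306), -0.16 ± 0.15 at day 12 (0.366) and -0.09 ± 0.15 at day 16 (0.627). The day 6 and day 9 differences passed the p threshold and were far under 4-fold.

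SERPING1 moved with the day in both populations instead. From day 12 to day 16 the difference was 1.31 ± 0.15 in CD43- cells (adjusted p = 1.05e-07) and 1.37 ± 0.15 in CD43+ cells (5.68e-08), under the 4-fold limit, and all 6 samples of day 16 were above all other samples of the series. The day 2 samples were the lowest, at 738, 816 and 697, after 1355, 1410 and 1236 on day 0 (-0.83 ± 0.15, adjusted p = 7.74e-05). The day 4 samples read 1817, 1556 and 1943 (1.24 ± 0.15, adjusted p = 2.24e-07). The sum of 10 interferon response genes was also higher on day 16, at 21787 to 34219 in CD43- cells and 33086 to 45233 in CD43+ cells, against 4654 to 7337 and 7097 to 14368 on day 12. The part of an interferon response in the SERPING1 values was not tested. Nearest to SERPING1 over the 33 samples were CRELD1 (r = 0.93), ING4 (0.92) and CALCOCO1 (0.92).

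C3 is the component on which all pathways converge and the source of C3a. It lies at chr19:6677704-6730562 on the minus strand and overlaps GPR108 on the same strand. The gene was low in both sorted populations on day 6, at 40, 34 and 84 in CD43- cells and 46, 28 and 30 in CD43+ cells. CD43+ cells were ahead on day 9, at 258, 170 and 544 against 62, 108 and 36. The sample with 544 had a hepatic and yolk-sac sum of 1991 against 86 and 155 in the other CD43+ replicates. In it ALB, the albumin gene, read 984 against 16 and 70, and the mesenchymal sum was 22125 against 4342 and 8693. Of the same hepatic and yolk-sac list, APOA1 read 131 against 14 and 24, but AFP was not raised, at 6 against 8 and 3. The part of such cells in this C3 value was not tested. On day 12 CD43+ cells read 3410, 1046 and 903 and CD43- cells 245, 1106 and 508, so the groups overlapped. On day 16 the order was the opposite one, with CD43- cells at 1043, 1099 and 1253 and CD43+ cells at 262, 290 and 308.

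Between CD43+ and CD43- cells C3 differed by -0.51 ± 0.49 at day 6 (adjusted p = 0.406), 2.19 ± 0.49 at day 9 (0.000316, called), 1.51 ± 0.49 at day 12 (0.00794) and -1.98 ± 0.49 at day 16 (0.000869). The last is just under the 4-fold limit and passed it with median-of-ratios scaling, under which the day 9 value became 1.98 and was not called. The day 9 call was also lost without CD43- replicate 3 (1.80, adjusted p = 0.00454), without CD43+ replicate 3 (1.73, adjusted p = 0.00542) and with a replicate block within the day (2.19, adjusted p = 0.0589). The day 16 difference was called without CD43- replicate 1 (-2.03, adjusted p = 0.00261) and without CD43+ replicate 3 (-2.03, adjusted p = 0.00257). The change of direction from day 12 to day 16 was tested on the difference itself and was -3.49 ± 0.69 (adjusted p = 0.000945), where 5.03% of all genes were called. Day 16 was sorted by CD45 too, so sort and day cannot be told apart in this change.

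Between successive days C3 moved in both directions. It fell from 190, 196 and 110 on day 0 to 28, 41 and 43 on day 2 (-2.09 ± 0.49, adjusted p = 0.0013), a call lost without day 0 replicate 1 or 2 or day 2 replicate 1 (-1.97, -1.95 and -1.91). In CD43+ cells it rose by 3.05 ± 0.49 from day 6 to day 9 (adjusted p = 2.26e-05) and by 2.35 ± 0.49 from day 9 to day 12 (0.0002), then fell by 2.36 ± 0.49 to day 16 (0.00035). In CD43- cells it rose by 3.03 ± 0.49 from day 9 to day 12 (adjusted p = 3.06e-05), and the further 1.13 ± 0.49 to day 16 missed the threshold (0.0617). The CD43+ peak on day 12 leant on replicate 1. Without it the rise from day 9 was 1.75 (adjusted p = 0.00442) and the fall to day 16 was -1.76 (0.00597), neither of them called, and without CD43+ replicate 2 of day 9 the rise was 1.98 (0.00311). That replicate 1 also had the most macrophage transcripts of its group, with a summed value of 84001 for 8 marker genes against 29375 and 24021, and CD163, a scavenger receptor of macrophages, at 17368 against 4720 and 2706. On day 16 the CD43+ cells had a macrophage sum of 60973 to 69730 and CD163 at 17368, 15868 and 20424. Their C3 values were 262, 290 and 308. The part of macrophages in the C3 values was not tested. By likeness over the samples C3 was nearest to LINC00847 (r = 0.91), ESYT2 (0.86) and AKAP11 (0.85), while its r was 0.61 with C3AR1 and 0.39 with C1S.

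CFB encodes factor B, the protease part of the alternative C3 convertase,. It lies at chr6:31945650-31952084 on the plus strand and overlaps C2 and a readthrough gene on the same strand, so its values are uncertain where reads were shared. CFB read 10, 6 and 2 on day 0, 2, 3 and 2 on day 2 and 1, 0 and 0 on day 4. From day 4 it rose to 6, 12 and 16 in CD43- cells of day 6 (3.20 ± 0.63, adjusted p = 0.000167), and no other of the 9 genes was called there, beside 4.94% of all genes called higher. It rose alike to 10, 10 and 8 in CD43+ cells (3.03 ± 0.63, adjusted p = 0.000215). Both folds start from values near 0 and shrank to 1.02 and 0.90 with a pseudocount of 10, where neither was called.

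On day 9 CFB read 22, 20 and 10 in CD43- cells and 8, 13 and 88 in CD43+ cells, and on day 12 15, 48 and 24 against 32, 8 and 10. The single CD43+ value of 88 came with ALB, the albumin gene, at 984 in the same sample against 16 and 70 in the other replicates. AFP was not raised in that sample, at 6 against 8 and 3, and the part of such cells was not tested. On day 16 the populations stood together, with CD43- cells at 68, 63 and 74 and CD43+ cells at 68, 67 and 79. CFB was called between CD43+ and CD43- cells on no day, with log2 fold changes of -0.17, 0.36, -0.86 and 0.06, each with an SE of 0.63 and adjusted p-values of 0.85, 0.631, 0.225 and 0.947. In CD43+ cells it rose by 2.28 ± 0.63 from day 12 to day 16 (adjusted p = 0.00456), a call lost without day 12 replicate 2 (1.92, adjusted p = 0.0305). The corresponding difference in CD43- cells was 1.36 ± 0.63 (adjusted p = 0.0776). Most like CFB were RAB24 (r = 0.88), BMT2 (0.87) and PIK3IP1 (0.87).

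The other 4 genes, CFD, CFP, C3AR1 and C5AR1, stood higher in CD43+ cells. CFD lies at chr19:859643-863630 on the plus strand, CFP at chrX:47624213-47630305 on the minus strand, C3AR1 at chr12:8058302-8066471 on the minus strand and C5AR1 at chr19:47290023-47322066 on the plus strand, and none of the 4 overlaps another annotated gene. Their proximal promoters are shown because these are the members that CD43+ cells had called higher on 3 or 4 days. The sequences are from RefSeq (GRCh38.p14), start within 250 bases before an annotated transcription start and leave out exons of the gene itself. The C5AR1 stretch lies within the annotated gene, before a start downstream of the gene's first, and CFP has another annotated start that is not shown. They were searched on both strands for GAGGAA, the core bound by PU.1, for TTGCNNAA (C/EBP), for TTCNNNGAA (STAT) and for the interferon response element, GAAA and GAAA with any 2 bases between, and capitals mark a match. The CFD stretch is chr19:859414-859642 (plus strand), that of CFP chrX:47630306-47630555 (minus strand), that of C3AR1 chr12:8066472-8066609 (minus strand) and that of C5AR1 chr19:47309611-47309860 (plus strand).
CFD: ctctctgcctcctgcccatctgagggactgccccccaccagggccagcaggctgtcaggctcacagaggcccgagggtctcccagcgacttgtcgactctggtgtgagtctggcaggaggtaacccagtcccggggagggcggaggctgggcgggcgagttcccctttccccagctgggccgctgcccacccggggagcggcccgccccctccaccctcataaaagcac
CFP: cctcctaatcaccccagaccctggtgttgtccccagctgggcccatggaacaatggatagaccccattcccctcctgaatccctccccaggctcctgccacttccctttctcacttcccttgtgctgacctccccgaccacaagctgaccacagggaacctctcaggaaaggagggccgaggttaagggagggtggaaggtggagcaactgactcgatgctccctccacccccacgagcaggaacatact
C3AR1: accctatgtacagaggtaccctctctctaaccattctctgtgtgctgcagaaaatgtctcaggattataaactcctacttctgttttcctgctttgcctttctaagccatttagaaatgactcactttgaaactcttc
C5AR1: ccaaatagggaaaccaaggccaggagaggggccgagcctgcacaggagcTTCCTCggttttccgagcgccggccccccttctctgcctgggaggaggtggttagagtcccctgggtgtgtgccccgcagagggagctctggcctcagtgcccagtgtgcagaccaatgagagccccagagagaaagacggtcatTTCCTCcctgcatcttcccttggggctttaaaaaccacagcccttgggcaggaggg
Of the 4 stretches shown, that of C5AR1 held a match. It had the complement of the PU.1 core, TTCCTC, at 201 to 196 and at 56 to 51 bases before the start. The window of the other CFP start (chrX:47629931-47630180) held TTCCTC at 207 to 202 and at 20 to 15 bases before that start, in both cases overlapping exons of CFP. Windows of C1R, which was lower in CD43+ cells, held TTCCTC at 78 to 73 bases before a start and C/EBP and STAT matches. That of CFB held a STAT and an interferon match. All of these overlapped exons of their own gene. Over 35116 windows of 250 bases, the length of the CFP and C5AR1 stretches, the PU.1 core occurred in 23.6%, TTGCNNAA in 9.05%, TTCNNNGAA in 6.57% and the interferon response element in 3.02%. Shortened to the 229 bases of the CFD stretch, 21.6% of windows held the PU.1 core, and shortened to the 138 bases of C3AR1 13.7% did, so the letters are common and a match is a description only.

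CFD encodes factor D, the serine protease that activates factor B. The CD43+ samples read 72, 54 and 69 at day 6, 268, 328 and 268 at day 9, 1256, 2262 and 2033 at day 12 and 5777, 3980 and 3814 at day 16. The CD43- samples read 3, 16 and 11, then 45, 94 and 8, then 20, 54 and 74, and last 213, 356 and 222. The populations were apart on all 4 days. CFD was higher in CD43+ cells by 2.81 ± 0.67 at day 6 (adjusted p = 0.00106), 3.08 ± 0.67 at day 9 (0.000251), 5.34 ± 0.67 at day 12 (8.52e-08) and 4.11 ± 0.67 at day 16 (5.69e-06). With a pseudocount of 10 the day 6 value was 1.96 and not called.

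In CD43+ cells every CFD value of a later day was higher than every value of an earlier one. CFD rose by 2.13 ± 0.67 from day 6 to day 9 (adjusted p = 0.0168) and by 2.64 ± 0.67 to day 12 (0.0016), and the last step of 1.31 ± 0.67 missed the threshold (0.121). The first step was lost without CD43+ replicate 2 of day 6 (2.01, adjusted p = 0.0549) or of day 9 (2.04, adjusted p = 0.054), and with a pseudocount of 10 (1.99). The marker sums of CD43+ cells moved over the same days. The 7 granulocyte genes summed to 350 to 540 on day 6, 23275 to 31530 on day 9, 199283 to 227275 on day 12 and 165338 to 228355 on day 16. The 8 macrophage genes summed to 856 to 1264, 3158 to 3713, 24021 to 84001 and 60973 to 69730 on those days. The myeloperoxidase gene MPO made up most of the granulocyte sum on day 9, at 29015, 20412 and 20412. On days 12 and 16 it stood at the highest value of the data, 90700, in every CD43+ sample. The 5 erythroid genes summed to 102850 to 108429 on day 6 and 101324 to 109300 on day 9, and to 2932 to 9835 on day 12 and 4368 to 10046 on day 16. The part of these cells in the CD43+ values of CFD, C3AR1 and C5AR1 was not tested. In CD43- cells CFD rose by 2.54 ± 0.67 from day 12 to day 16 (adjusted p = 0.00319), and no other of the 9 genes was called there, beside 4.46% of all genes called higher. In those day 16 CD43- samples MPO read 4657, 12840 and 8970, against 16, 324 and 4608 on day 12. Their 5 megakaryocyte genes summed to 4114, 12419 and 6309, against 153, 402 and 862. Their 5 erythroid genes summed to 896, 1196 and 1920, against 2, 25 and 79. The part of such blood cells in the CFD values was not tested. Closest to CFD were PRSS57 (r = 0.95), a serine protease of neutrophil granules, DAPP1 (0.95) and CXorf38 (0.95), and its r with C3AR1 was 0.91.

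CFP encodes properdin, the stabiliser of the alternative convertase that neutrophils and monocytes release. In CD43+ cells CFP read 520, 391 and 426 at day 6, 592, 538 and 467 at day 9, 1095, 732 and 826 at day 12 and 945, 852 and 1318 at day 16. In CD43- cells the values were 144, 103 and 122, then 57, 80 and 32, then 23, 50 and 80, and last 44, 52 and 60. The populations did not overlap at any time. CFP differed by 1.85 ± 0.35 at day 6 (adjusted p = 7.12e-05, under 4-fold), 3.30 ± 0.35 at day 9 (4.51e-09), 4.24 ± 0.35 at day 12 (2.73e-11) and 4.28 ± 0.35 at day 16 (2.38e-11).

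From day 4, when CFP read 52, 70 and 48, it rose by 2.96 ± 0.35 in the CD43+ cells of day 6 (adjusted p = 7.91e-08). No later step passed in CD43+ cells, with differences of 0.26, 0.72 and 0.23 and adjusted p-values of 0.632, 0.0804 and 0.632. In CD43- cells the difference from day 6 to day 9 was -1.19 ± 0.35 (adjusted p = 0.0354), under 4-fold. The CD43 difference widened by 2.43 ± 0.49 from day 6 to day 16 (adjusted p = 0.000189). Most like CFP were CD244 (r = 0.97), LST1 (0.96) and NRROS (0.96), which are known from leukocytes.

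C3AR1 encodes the receptor of C3a. It read 0 to 3 in all 9 unsorted samples of days 0, 2 and 4 and 2 in the undifferentiated sample. CD43+ cells read 24, 12 and 10 at day 6, 86, 141 and 154 at day 9, 1854, 1250 and 1642 at day 12 and 1336, 1198 and 1828 at day 16. CD43- cells read 1, 2 and 3, then 2, 2 and 1, then 1, 12 and 72, and last 6, 28 and 16. The populations were apart on every day, and the day 12 and 16 CD43+ cells stood above all other groups and overlapped each other. C3AR1 was higher in CD43+ cells by 2.41 ± 0.77 at day 6 (adjusted p = 0.0105), 5.57 ± 0.77 at day 9 (4.57e-07), 6.98 ± 0.77 at day 12 (7.17e-09) and 6.57 ± 0.77 at day 16 (2.29e-08). The day 6 call was lost without CD43+ replicate 1 (2.05, adjusted p = 0.0544) and with a pseudocount of 10 (1.04).

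In CD43+ cells C3AR1 rose by 2.93 ± 0.77 from day 4 to day 6 (adjusted p = 0.00219), by 3.02 ± 0.77 to day 9 (0.0033) and by 3.65 ± 0.77 to day 12 (0.000221), and the step from day 12 to day 16 was -0.13 ± 0.77 (0.921). With a pseudocount of 10 the step from day 4 to day 6 was 1.13 and not called. Nearest to it were CYBB (r = 0.98), the catalytic subunit of the phagocyte oxidase, LILRB2 (0.97), an inhibitory receptor of myeloid cells, and DOCK8 (0.97). C3AR1 and C5AR1 had an r of 0.87, with C5AR1 at rank 534 among the genes most like C3AR1.

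C5AR1 encodes the receptor of C5a. C5AR1 read 142, 106 and 104 in the CD43+ cells of day 6, 101, 169 and 98 in those of day 9, 2809, 1576 and 1500 in those of day 12 and 2050, 1777 and 2664 in those of day 16. In the CD43- cells its values were 8, 5 and 32, then 6, 34 and 6, then 58, 178 and 300, and last 86, 74 and 68. Each CD43+ sample was above each CD43- sample of its day. It was higher in CD43+ cells by 3.27 ± 0.65 at day 6 (adjusted p = 0.000139), 3.32 ± 0.65 at day 9 (6.55e-05), 3.68 ± 0.65 at day 12 (1.53e-05) and 4.80 ± 0.65 at day 16 (2.81e-07).

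In CD43+ cells C5AR1 rose in separate steps, by 5.16 ± 0.65 from day 4 to day 6 (adjusted p = 2.4e-07), differed by 0.03 ± 0.65 to day 9 (0.992), rose by 3.97 ± 0.65 to day 12 (9.5e-06), and then differed by 0.18 ± 0.65 (0.855). In the unsorted samples it was listed at 0 in all 3 day 0 samples, at 48, 33 and 30 on day 2 and at 0, 4 and 6 on day 4. The day 2 values were above those of day 0 (adjusted p = 3.68e-07) and fell by 3.51 ± 0.65 to day 4 (adjusted p = 9.75e-05), and with a pseudocount of 10 fell by 1.83, which was not called. The 8 macrophage markers summed to only 61 to 83 on day 2. Most like C5AR1 were CSF3R (r = 0.95), the receptor of G-CSF, IL1B (0.93) and PTPN1 (0.92).

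**Figure D2:**
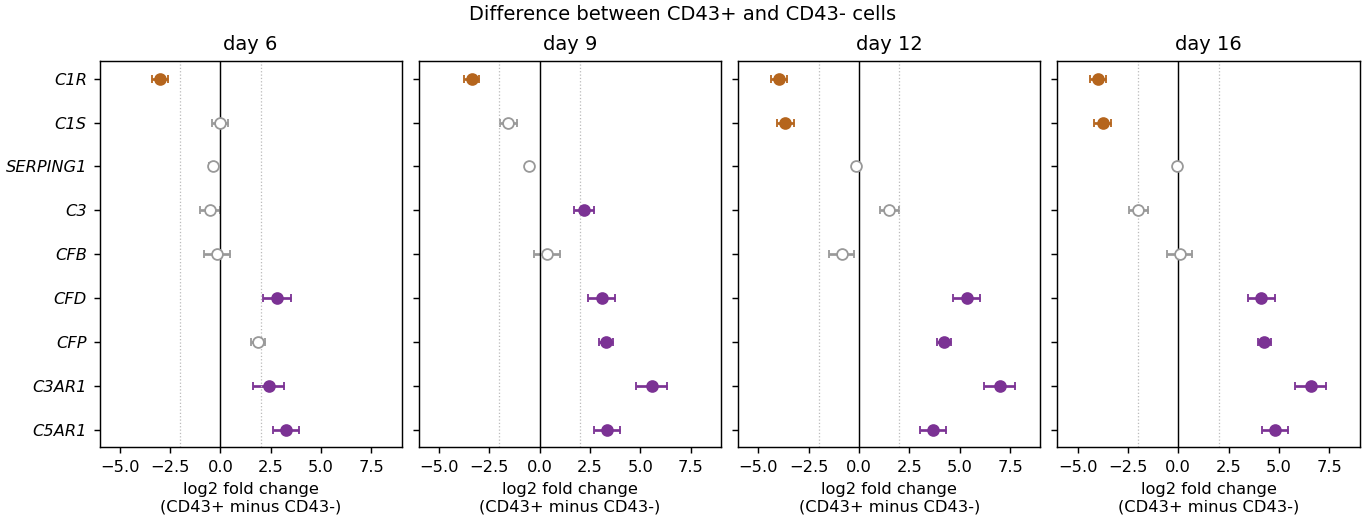
The log2 fold change between CD43+ and CD43- cells is plotted for the 9 genes on days 6, 9, 12 and 16, with bars of 1 SE, filled points for called genes and dotted lines at the 4-fold limit. C1R lies left of the limit on every day and C1S from day 12, CFD, C3AR1 and C5AR1 lie right of it on every day and CFP from day 9, and SERPING1 stays near 0.

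Both receptors also appeared in CD43- cells of day 12, unevenly. From day 9 to day 12 in CD43- cells C5AR1 rose by 3.62 ± 0.65 (adjusted p = 0.000101) and C3AR1 by 2.24 ± 0.77 (0.0231), and with C3 they made 3 of the 9 genes called higher there, beside 4.52% of all genes. Replicates 2 and 3 had 178 and 300 for C5AR1 and 12 and 72 for C3AR1, and replicate 1 had 58 and 1. The same replicates 2 and 3 held leukocyte transcripts. PTPRC, which encodes CD45, read 4 in replicate 1 and 197 and 371 in replicates 2 and 3. CSF1R, the receptor that marks macrophages, read 71 in replicate 1 and 1379 and 2314 in the others, and CD14 read 13 against 249 and 337. The 7 granulocyte genes summed to 452 in replicate 1 and to 1538 and 8129 in replicates 2 and 3. Among them MPO read 16 in replicate 1 and 324 and 4608 in the others.

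All 8 macrophage markers reached a mean of at least 10 in the day 12 CD43- cells, with a summed value of 375, 4860 and 6039, against 24021 to 84001 in the CD43+ cells of that day. Replicates 2 and 3 were also left out together, a setting chosen after the data were seen. The C5AR1 difference from day 9 was then 2.30, that of C3AR1 was -0.39 and that of C3 was 1.96. The lone sample is assumed there to vary like the other groups. Replicates 2 and 3 also had the higher values of these genes, so smaller differences without them were bound to follow. The part of leukocytes in the day 12 values was not tested. The C3AR1 call was also lost without any 1 of day 9 replicate 3 (2.05, adjusted p = 0.0789), day 12 replicate 2 (2.20, 0.0553) and day 12 replicate 3 (0.96, 0.284). Between CD43+ and CD43- cells on day 12 both receptors were still called with any 1 replicate left out. The difference then ranged from 5.66 to 8.26 for C3AR1 and from 3.02 to 4.19 for C5AR1. That of C3 on day 12 went from 1.51 to 2.59 without CD43- replicates 2 and 3. C3 was called there without CD43- replicate 2 alone (2.06, adjusted p = 0.000815). On day 16, when the sort also used CD45, PTPRC read 18 to 42 in CD43- cells and C5AR1 86, 74 and 68. In those samples the 7 granulocyte genes summed to 7096 to 21919, against 452 to 8129 on day 12, and MPO read 4657, 12840 and 8970. Their 5 megakaryocyte genes summed to 4114 to 12419, against 153 to 862 on day 12, and their 5 erythroid genes to 896 to 1920, against 2 to 79. The part of such blood cells in the C5AR1 values was not tested.

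**Figure D3:**
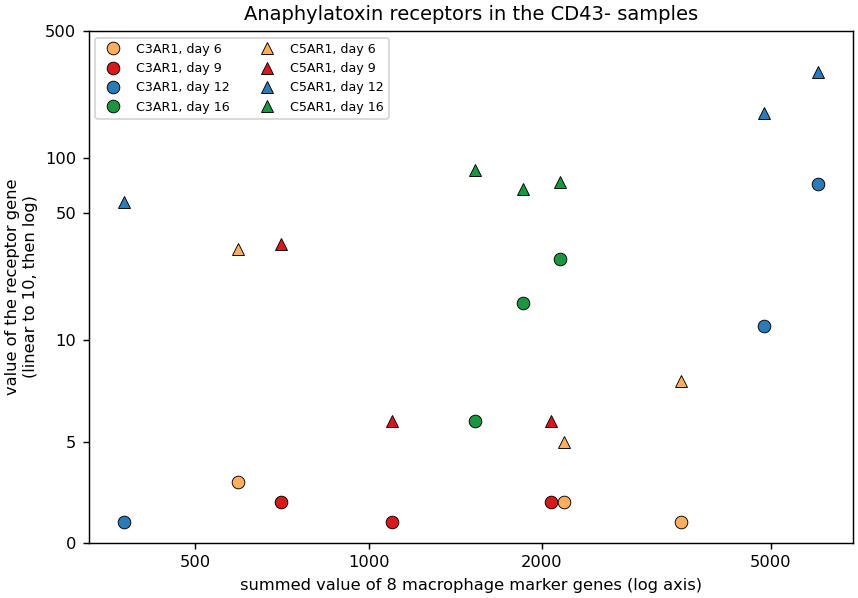
The values of C3AR1 (circles) and C5AR1 (triangles) in the 12 CD43- samples are plotted against the summed value of 8 macrophage marker genes on a log axis, coloured by day, with a vertical axis that is linear to 10 and logarithmic above. The day 12 sample with a sum of 6039 has the highest value of both receptors, while day 6 samples with sums of 2182 and 3495 have C3AR1 at 2 and 1. In those day 6 samples CD14, CSF1R, CD163 and MS4A7 read 0 to 18, so most of the sum came from other genes of the list.

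Between successive days, 1 of the 9 genes was called higher and 3 lower from day 0 to day 2, beside 4.4% and 3.48% of all genes. C5AR1 was the higher one, and C1R, C3 and CFD were lower. CFD read 37, 32 and 67 on day 0 and 3, 29 and 8 on day 2 (-2.10 ± 0.67, adjusted p = 0.0156), a call lost without day 0 replicate 3 (-1.79, adjusted p = 0.0698) or day 2 replicate 1 (-1.42, adjusted p = 0.132). From day 2 to day 4 C5AR1 alone was called, lower, beside 4.53% of all genes. From day 4 to the CD43+ cells of day 6, 5 were called higher (CFB, CFD, CFP, C3AR1 and C5AR1) and 1 lower (C1R), beside 6.8% and 7.73%. The CFD value there was 2.35 ± 0.67 (adjusted p = 0.00479), or 1.91 without day 4 replicate 2, where it was not called. In CD43+ cells 3 genes were called higher from day 6 to day 9 (C3, CFD and C3AR1, beside 3.56%), 4 from day 9 to day 12 (C3, CFD, C3AR1 and C5AR1, beside 8.45%) and, from day 12 to day 16, CFB higher (beside 3.79%) and C3 lower (beside 5.26%). These comparisons share samples at each middle day. The CD43 difference itself changed for 2 of the 9 genes between days 6 and 9 (C3 and C3AR1, beside 7.39% of all genes), for C1S between days 9 and 12 (beside 9%), for C3 between days 12 and 16 and for 3 between days 6 and 16 (C1S, CFP and C3AR1, beside 19.2%).

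Around these 9 genes, 49 other complement genes were counted, of which 40 were in the table and 36 were tested. At day 6, CD43+ cells had 6 of the 36 higher and 6 lower. The counts were 13 and 11 at day 9, 12 and 8 at day 12 and 12 and 8 at day 16. The shares of all genes called on those days stand above. The median log2 fold change of the 36 was 0.00, 0.86, 0.88 and 0.48 on days 6, 9, 12 and 16. In all, 25 of the 36 were called on at least 1 day. Those higher in CD43+ cells were the C1q genes C1QA, C1QB and C1QC, the early components C2, C4A and C4B, the lectin FCN1, the receptors CR1, VSIG4, ITGAM, ITGAX, ITGB2 and C5AR2, and the regulator CD55. Those lower were the lectins and their protease COLEC10, COLEC11, FCN3 and MASP1, the terminal component C7, and the regulators VTN, CFI, C4BPB, CD59, CSMD1 and SUSD4.

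The 3 largest rises were those of C1QA, C1QB and FCN1. C1QA read 3806 ± 934 in CD43+ and 5.33 ± 3.06 in CD43- cells on day 16 (9.35 ± 0.85, adjusted p = 2.54e-10), and C1QB read 3501 ± 1225 and 6.67 ± 3.06 (8.86 ± 0.77, adjusted p = 9.35e-11). These are chains of the recognition molecule upstream of C1r and C1s, so on day 16 C1q transcripts were high where C1R and C1S were low. FCN1, the ficolin of monocytes, read 5030 ± 1734 in CD43+ and 20.0 ± 24.2 in CD43- cells on day 12 (8.50 ± 0.51, adjusted p = 4.72e-14). The 3 largest falls were on day 12. VTN, which encodes vitronectin, an inhibitor of the terminal complex, read 49.3 ± 52.6 in CD43+ and 2644 ± 1061 in CD43- cells (-6.16 ± 0.74, adjusted p = 3.92e-08). C7 read 1.33 ± 1.53 and 190 ± 183 (-6.14 ± 0.83, adjusted p = 2.89e-07), and COLEC11, a collectin that recognises sugars, 5.33 ± 3.06 and 472 ± 375 (-6.06 ± 0.56, adjusted p = 3.18e-10). C4A and C4B are near-identical copies, so their values are uncertain.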

How the data were processed

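RNA sequencing of 34 H1 samples was analysed from 1 table of genes. The authors aligned reads to an Ensembl annotation with bowtie and RSEM and corrected them with EDASeq for the GC content of genes, inside each sample and across samples. The deposited values are the resulting tag counts as whole numbers, and they were treated as a normalized score, neither raw counts nor CPM. The deposited GC percent of each gene was used only in checks. Sequencing depth cannot be read from these values, and errors come from the replicates alone. The libraries were sequenced at more than 1 company, which the labels do not assign to samples, so company and day cannot be told apart.

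Tests were run on log2(value + 1) by limma 3.58.1 under R 4.3.3, using lmFit and eBayes with a trend, over 33 samples with a mean for each of 11 populations and no replicate block. Genes had to reach 10 in at least 3 samples, and 19788 did. Genes were called at an adjusted p below 0.05 and a fold change above 4. Comparisons were CD43+ against CD43- cells on each day, successive days, and the change of the CD43 difference. The undifferentiated sample has no replicate and stayed out of the fit. The fit was tested on simulated data. Named were all 9 members, every other complement gene counted here and called in a CD43 comparison, with values for the 3 largest rises and falls, and the 3 genes most like each member. Of the complement list, 1 gene is not reported here. The members and all gene lists were chosen with earlier results of these data known.

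The alternatives were pseudocounts of 0.1 and 10, no filter, a minimum of 100, median-of-ratios scaling, quantile normalization, replicate blocks, robust variances, fitting the compared populations alone, a fold change above 2 and leaving out each replicate. Pairing by replicate number was judged from how far CD43+ and CD43- samples of the same number deviated together from their means (correlation over genes). On day 6 every pair was over 0.1 (0.109 to 0.199). On the other days it ranged from -0.015 to 0.108, and pairing was accepted for day 6 alone, where the block changed no call of the 9 genes. Promoter sequences are from RefSeq (GRCh38.p14), and gene positions from the deposited table (GRCh38), with overlaps from GENCODE v29.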

Additional observations from a re-analysis of the deposited data

Results flagged for a closer look

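The difference between CD43+ and CD43- cells changed between days, tested as an interaction in limma, for 4 of the 9 genes. C3AR1 widened by 3.16 (log2, adjusted p = 0.0418) from day 6 to day 9, as CD43+ cells went from 10 to 24 up to 86 to 154 and CD43- cells stayed at 1 to 3. That call was lost in 9 of 12 fits with 1 sample left out, over which the value ranged from 2.92 to 3.51, and with a pseudocount of 0.1 (3.29, adjusted p = 0.189). From day 6 to day 16 the C3AR1 difference widened by 4.16 (adjusted p = 0.00234), a call lost with a pseudocount of 0.1 (3.78, adjusted p = 0.0653). C3 moved by 2.70 (adjusted p = 0.00664) between days 6 and 9 and by -3.49 (adjusted p = 0.000945) between days 12 and 16. C1S moved by -2.09 (adjusted p = 0.00937) from day 9 to day 12, a call lost without CD43- replicate 1 (-1.84) or 3 (-1.93) of day 9, CD43- replicate 2 of day 12 (-1.71) or CD43+ replicate 1 of day 12 (-1.64). From day 6 to day 16 C1S moved by -3.72 (adjusted p = 1.04e-05) and CFP by 2.43 (adjusted p = 0.000189). Of all genes tested, 7.39% were called for the change between days 6 and 9, 9% between days 9 and 12, 5.03% between days 12 and 16 and 19.2% between days 6 and 16.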

How the results depend on the processing

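All results kept their direction and side of the threshold with no filter, robust variances and the replicate block over all populations, under which 4, 6, 6 and 6 of the 9 genes were called between CD43+ and CD43- cells on days 6, 9, 12 and 16. Quantile normalization could change nothing, since every sample already held the same set of values. A block within each day changed 1 call, C3 on day 9 (2.19, adjusted p = 0.0589). With a pseudocount of 0.1, 2 genes were called between days 2 and 4, 2 between day 4 and the day 6 CD43- cells and 1 where the CD43 difference changed between days 6 and 9. With a pseudocount of 10, these counts were 2 for CD43 on day 6, with 6 other complement genes, 2 between days 0 and 2, 0 between days 2 and 4, 0 and 2 between day 4 and the CD43- and CD43+ cells of day 6, 1 in CD43+ cells between days 12 and 16, and 2 and 5 for the changing difference of days 9 to 12 and 6 to 16, while 1458 and 2731 of all genes were called on days 6 and 9. With a value of at least 100, 0 were called between day 4 and the day 6 CD43- cells and 1 in CD43+ cells between days 12 and 16. Median-of-ratios scaling left 0 for the change from day 9 to 12. A fold change above 2 called 22 other complement genes on day 6 and 5369, 8240, 8985 and 8974 genes in all on days 6, 9, 12 and 16 (2481, 4252, 5176 and 5101 above 4), with 4 of the 9 from day 2 to 4, and 4, 3 and 2 in CD43- cells from day 4 to 6, 6 to 9 and 12 to 16. Fitting only the populations compared left 0 in CD43- cells from day 6 to 9, 1 from day 9 to 12 and 0 for the change from day 9 to 12. The causes were not tested.

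Leaving out 1 replicate, the count ranged from 2 to 4 from day 0 to 2, from 1 to 2 from day 4 to day 6 CD43- cells, from 0 to 2 in CD43- cells from day 6 to 9, from 1 to 2 in CD43+ cells from day 12 to 16, and from 1 to 2 and 0 to 2 for the change of the difference from day 6 to 9 and day 9 to 12. C5AR1 from day 4 to day 6 CD43- cells (1.89) was called in 4 of 6 such fits. Signs turned for uncalled differences only, C1S on day 6 (-0.38 to 0.24) and CFB on day 6 (-0.53 to 0.11), day 9 (-0.64 to 1.02) and day 16 (-0.014 to 0.12). With day 12 CD43- replicates 2 and 3 left out, chosen after seeing the data, a lone sample stayed in that group, so sizes alone are given. SERPING1 on day 12 then read 0.16, C3AR1 from day 9 to 12 in CD43- cells -0.39, C5AR1 from day 12 to 16 in CD43- cells 0.38, and the C3 change from day 9 to 12 0.40. Depth is unknown, low values of CFB and C3AR1 carry folds that depend on the pseudocount, and 3 replicates limit the precision.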
